A study of Mus musculus with 6 samples.

Results

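The clade B serpins are the intracellular branch of the serpin protease inhibitors, and in the deposited expression table they were taken as every gene whose symbol is Serpinb followed by a number and at most 1 letter. The rule found 27 Serpinb genes among 22063 genes. They were measured by bulk RNA sequencing in 6 bladder tumours of female mice from an immunocompetent model of spontaneous bladder cancer, and every tumour had received anti-PD-1 antibody once formed. The labels name 3 tumours as non-responsive and 3 as responsive, and the comparison asks how gene expression differs between resistant and responding tumours. The sources used here do not give strain, age, how the tumours arise or when they were sampled, and the samples hold no untreated group. The labels do not say that each sample came from its own animal, so p-values reflect only sample-to-sample spread, which may be technical.

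A serpin inhibits a protease by offering an exposed loop as bait: the protease cuts the loop, the serpin snaps shut, and both stay locked together. Clade B members lack a classical secretion signal and mostly act inside the cell, where they protect it from proteases of its own granules and lysosomes or from those of neighbouring killer cells. Some are typical of stratified epithelia (Serpinb3a, Serpinb5, Serpinb11, Serpinb12), some of leukocytes (Serpinb1a, Serpinb9), and others are broadly expressed (Serpinb6a, Serpinb8). Rodents carry many additional copies of the family that arose by local duplication.

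Total counts were between 15046178 and 23917413 per tumour, so that a count of 0 allows up to 0.124 to 0.199 CPM (counts scaled to the library size after TMM normalisation). Over all genes, the library closest to non-responsive replicate 1 was responsive replicate 2 (Pearson r = 0.95 across genes, which are not independent). With the other non-responsive tumours its r was 0.906 and 0.921, and those 2 correlated at 0.923 with each other. Responsive replicate 2 was also the closest library of responsive replicates 1 (0.944) and 3 (0.958), which correlated at 0.911. Differences without non-responsive replicate 1 are given below. Markers of epithelium and of leukocytes were detected in every tumour. Epcam, an epithelial adhesion molecule, was at 91.2 to 222 CPM, the basal keratin Krt5 at 1088 to 8266 CPM and the leukocyte antigen Ptprc at 30.7 to 263 CPM. The urothelial plaque gene Upk2 ranged from 7.87 to 199 CPM.

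In these tumours the family was dominated by a few genes. Levels of different genes were compared by the authors' FPKM, which is scaled for gene length. Serpinb6a was the most abundant at a mean of 203.5 FPKM over the 6 tumours, followed by Serpinb5 at 94.1, Serpinb1a at 52.8, Serpinb6b at 44.0, Serpinb2 at 34.0, Serpinb9 at 24.2, Serpinb11 at 15.3, Serpinb8 at 9.24 and Serpinb3a at 5.19. Serpinb12, Serpinb9b, Serpinb1b and Serpinb6c averaged between 0.804 and 1.84 FPKM. Serpinb6a alone made up 27.3 to 54.8% of the summed Serpinb FPKM of a tumour. The sum itself was 586, 448 and 354 FPKM in non-responsive replicates 1 to 3, and 563, 587 and 393 FPKM in the responsive ones, so the groups overlapped.

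**Figure D1:**
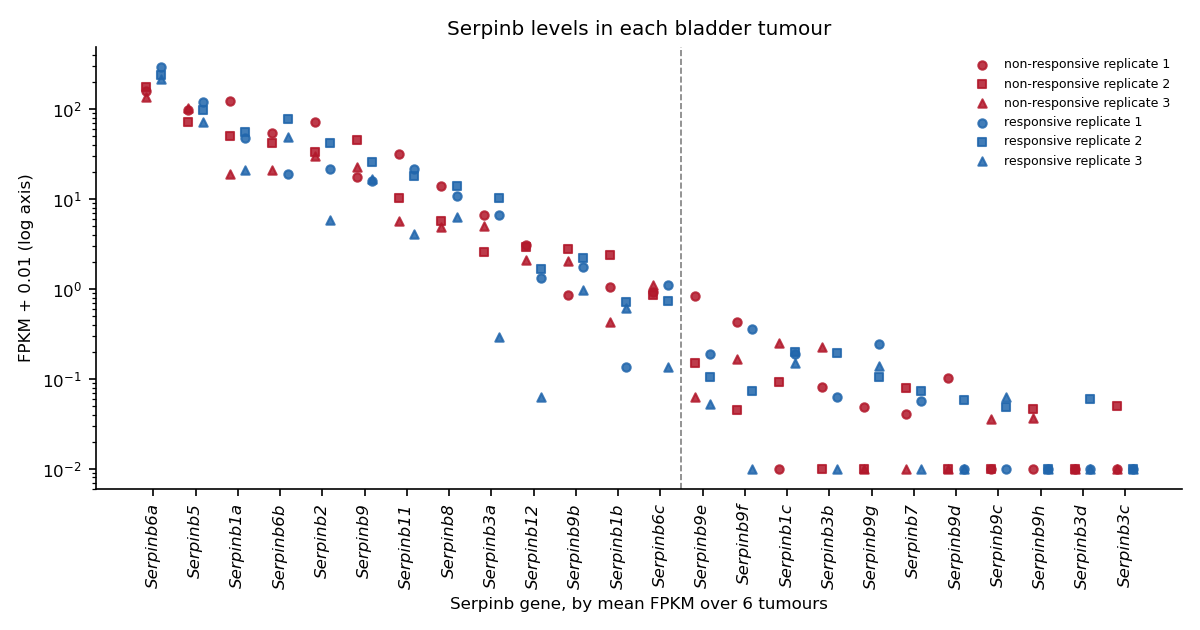
Deposited FPKM plus 0.01 (log axis) of the 24 Serpinb genes with a value above 0 in any tumour, ordered by mean level, with 1 point per tumour (red non-responsive, blue responsive, the marker shape giving the replicate). The dashed line separates the 13 genes that passed the expression filter from those under it, and Serpinb6a is the only gene near the top whose 2 groups do not overlap.

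Of the 27 genes, 13 passed the filter on low counts and 14 did not. Serpinb13, an epithelial inhibitor of cathepsins, and the mouse copies Serpinb6d and Serpinb6e had no count in any tumour. Serpinb7, known from the upper layers of skin, had at most 2 counts per tumour, and Serpinb3c, Serpinb3d, Serpinb9c, Serpinb9d and Serpinb9h also had at most 2. The remaining genes under the filter were Serpinb1c (0 to 6 counts), Serpinb3b (0 to 7 counts), Serpinb9e (2 to 27 counts), Serpinb9f (0 to 15.6 estimated counts) and Serpinb9g (0 to 10.4 estimated counts). Several of these are near-identical copies. The coding sequence of Serpinb9g matched that of Serpinb9h at 99.1% of aligned bases, Serpinb9f matched Serpinb9h at 98.9%, and Serpinb9d matched Serpinb9e at 94.8%. The 3 Serpinb1 genes and the Serpinb3 genes also have close copies, Serpinb1a with Serpinb1b at 90.7% and Serpinb3a with Serpinb3b at 93.1%. The sources used here do not say how reads shared by such copies were counted, so the values of the copies are uncertain. By contrast Serpinb5, Serpinb11, Serpinb12, Serpinb2 and Serpinb8 matched no other Serpinb gene at more than 68.5%.

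The genes lie in 2 clusters (GRCm38 coordinates, GENCODE mouse release 21). On chromosome 1 the 11 Serpinb genes span 749.3 kb from 106861173 (the start of Serpinb5) to 107610484 (the end of Serpinb8), and 6 of them passed the filter. On chromosome 13 the other 16 span 1160.7 kb from 32842092 (the end of Serpinb1a, on the minus strand) to 34002794 (the start of Serpinb6a, also on the minus strand), and 7 passed. The chromosome 1 cluster holds the epithelial genes with Serpinb2 and Serpinb8. Its summed level was 226, 126 and 152 FPKM in non-responsive replicates 1 to 3, and 183, 184 and 88.1 FPKM in the responsive tumours. The chromosome 13 cluster was at 360, 322 and 203 FPKM against 380, 402 and 305 FPKM. Neither cluster separated the groups.

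Serpinb12, Serpinb11 and Serpinb2 of the chromosome 1 cluster were all highest in non-responsive replicate 1 and lowest in responsive replicate 3, which is why the promoters of that cluster were examined. RefSeq windows on GRCm38.p6 of 250 bases before to 50 after an annotated start were matched for 25 of the 27 genes (31 windows), and 5 motifs were searched on both strands. A loose form of the AP-1 motif, TGANTCA, reads alike on both strands. It was found in 7 of 12 windows on chromosome 1 (6 of 10 genes) and in 0 of 19 on chromosome 13. The AP-1 site of Fos and Jun family factors has C or G as its middle base. Only the matches of Serpinb7 and Serpinb8 have it (TGAGTCA). Those of Serpinb5, Serpinb12, Serpinb11 and Serpinb2 read TGAATCA or TGATTCA. The 6 genes are those of the 5 matching windows shown here and Serpinb7, which had at most 2 counts per tumour. Of the 7 windows, 2 are overlapping windows of Serpinb2 that hold the same site. On chromosome 13, 2 windows of Serpinb6d overlap. Serpinb9d, Serpinb9e, Serpinb9f and Serpinb9g there are close copies (coding identity 94.3 to 98.7%). So are Serpinb3a, Serpinb3b and Serpinb3c on chromosome 1 (91.5 to 93.4%). The windows are therefore not independent of each other. The second window of Serpinb12 and that of Serpinb3a, which was also lowest in responsive replicate 3, have no match. The motif occurs in 7.81% of all 32851 promoter windows. Of the 31 windows, TATAAA was in 11 (13.62% of all windows), TTCNNNGAA in 4 (8.3%), and the NF-kB motif (0.41%) and a p53 response motif (0.78%) in 0. No matches of different motifs overlapped in these windows. A match is a description of letters, not evidence of binding. Matches to TGANTCA are in capitals below, and the Serpinb3a window is shown as one without a match. In Serpinb5 the match begins 140 bases before the start, in Serpinb12 45 bases, in Serpinb11 181 and 76 bases, and in Serpinb2 94 bases. Serpinb8 has one 23 bases before the start and one 13 bases after it. These 5 windows are on the plus strand: chr1:106860925-106861224 for Serpinb5, chr1:106934199-106934498 for Serpinb12, chr1:107362064-107362363 for Serpinb11, chr1:107511173-107511472 for Serpinb2 and chr1:107589756-107590055 for Serpinb8. That of Serpinb3a, chr1:107052254-107052553, is on the minus strand.
Serpinb5: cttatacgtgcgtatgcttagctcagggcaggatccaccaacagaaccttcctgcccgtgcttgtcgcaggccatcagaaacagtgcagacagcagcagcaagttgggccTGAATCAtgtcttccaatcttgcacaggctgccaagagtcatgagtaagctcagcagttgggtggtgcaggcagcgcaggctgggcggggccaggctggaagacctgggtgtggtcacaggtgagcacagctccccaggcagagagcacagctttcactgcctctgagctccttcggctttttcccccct
Serpinb12: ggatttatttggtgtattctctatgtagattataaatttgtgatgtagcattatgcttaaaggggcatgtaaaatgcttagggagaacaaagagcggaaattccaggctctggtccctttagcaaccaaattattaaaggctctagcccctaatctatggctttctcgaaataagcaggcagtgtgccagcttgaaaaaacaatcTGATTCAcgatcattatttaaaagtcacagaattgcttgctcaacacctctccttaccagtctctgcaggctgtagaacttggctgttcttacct
Serpinb11: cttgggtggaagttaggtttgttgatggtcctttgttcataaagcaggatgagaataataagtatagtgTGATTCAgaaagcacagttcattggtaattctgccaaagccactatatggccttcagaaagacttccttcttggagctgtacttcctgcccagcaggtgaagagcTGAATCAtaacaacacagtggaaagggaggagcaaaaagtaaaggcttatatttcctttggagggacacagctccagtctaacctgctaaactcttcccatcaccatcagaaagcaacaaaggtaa
Serpinb2: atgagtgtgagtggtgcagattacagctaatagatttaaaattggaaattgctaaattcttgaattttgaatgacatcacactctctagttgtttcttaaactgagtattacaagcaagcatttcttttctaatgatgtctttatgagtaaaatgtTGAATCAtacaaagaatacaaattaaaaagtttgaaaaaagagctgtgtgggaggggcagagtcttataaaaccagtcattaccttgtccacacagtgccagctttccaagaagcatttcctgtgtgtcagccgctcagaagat
Serpinb8: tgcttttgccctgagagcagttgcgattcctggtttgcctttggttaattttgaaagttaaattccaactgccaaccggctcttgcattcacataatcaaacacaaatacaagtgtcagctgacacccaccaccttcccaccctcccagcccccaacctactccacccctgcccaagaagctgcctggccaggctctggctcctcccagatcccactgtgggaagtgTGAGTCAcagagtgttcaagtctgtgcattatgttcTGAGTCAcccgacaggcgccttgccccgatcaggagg
Serpinb3a: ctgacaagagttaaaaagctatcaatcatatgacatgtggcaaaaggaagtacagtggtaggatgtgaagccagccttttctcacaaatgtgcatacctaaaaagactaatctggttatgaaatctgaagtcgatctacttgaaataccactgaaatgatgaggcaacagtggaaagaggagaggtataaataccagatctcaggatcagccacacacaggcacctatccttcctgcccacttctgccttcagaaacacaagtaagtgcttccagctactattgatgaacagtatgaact

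Between the groups, 0 of the 13 Serpinb genes passed the edgeR quasi-likelihood test with Benjamini-Hochberg adjustment over all 14505 genes tested, as did 0% of all genes (smallest adjusted p = 0.35). DESeq2 called 0 Serpinb genes as well, against 2.98% of all genes. At an unadjusted p under 0.05 there was 1 Serpinb gene (7.69% of the 13, against 12.6% of all genes tested), Serpinb6a, at lower levels in non-responsive tumours. DESeq2 had 2 Serpinb genes at an unadjusted p under 0.05 (13.2% of all genes with a DESeq2 p were), Serpinb6a and, from outside the 13, Serpinb9g. Serpinb9g had 1.25, 0 and 0 estimated counts in non-responsive replicates 1 to 3, against 10.4, 3 and 6 in the responsive ones (DESeq2 log2 difference -3.89). Fitted log2 differences (non-responsive minus responsive) were above 0 for 8 and below 0 for 5 genes, with a median of 0.15 against 0.01 over all genes, of which 51% lay above and 49% below 0. The CPM values of the 2 groups did not overlap for 2 of the 13: Serpinb12 was higher in every non-responsive tumour (9.58% of all genes tested were) and Serpinb6a lower (8.08% were). These shares are near the background. For 11 of 13 genes the groups overlapped. Of the 4 genes listed as broadly expressed 3 lay below 0 (median -0.32). Of 12 genes listed as other mouse copies, all 3 that passed the filter lay above 0 (median 0.39). Serpinb6b, a close copy too (87.9% with Serpinb6c), was listed as broadly expressed and lay below 0 (-0.32).

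**Figure D2:**
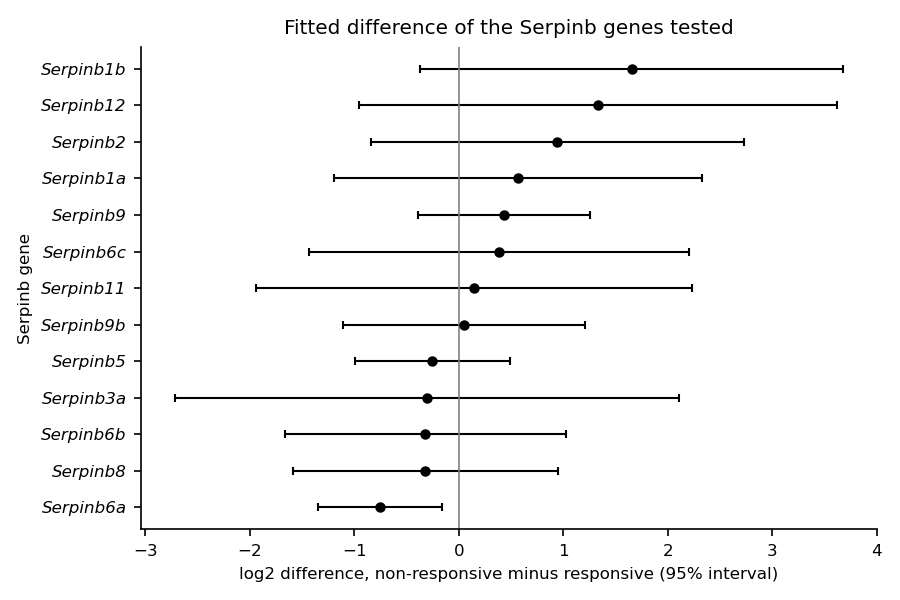
Fitted log2 difference between non-responsive and responsive tumours (3 each) for the 13 Serpinb genes tested, with 95% intervals from the edgeR fit. Only the interval of Serpinb6a (-1.35 to -0.16) leaves out 0, and those of Serpinb12, Serpinb1b, Serpinb3a and Serpinb11 span more than 4 log2 units.

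Serpinb6a (chromosome 13, 33917918 to 34002794), a broadly expressed inhibitor of cathepsin G and trypsin-like proteases, measured 271, 221 and 184 CPM across non-responsive replicates 1 to 3. In responsive replicates 1 to 3 it measured 455, 372 and 313 CPM. Every non-responsive value lay below every responsive one. The means were 225 ± 43.8 and 380 ± 71.3 CPM (SD, n = 3), giving a log2 difference of -0.75 ± 0.25 (SE), with an edgeR unadjusted p = 0.0195 and adjusted p = 0.364. Without non-responsive replicate 1 the difference was -0.91 (edgeR adjusted p = 0.13, DESeq2 adjusted p = 0.0142), the only setting in which a Serpinb gene was called. Its adjusted p ranged from 0.0142 to 0.647 over all settings. The annotated exons of Serpinb6a share 762 bases with Nqo2, 584 bases with the antisense gene 1110046J04Rik and 241 bases with Ripk1, all on the opposite strand, and without strand information reads there cannot be assigned to 1 gene. Nqo2, a quinone reductase, differed by -0.13 ± 0.22 and Ripk1, a kinase of cell death signalling, by 0.35 ± 0.18. Of the epithelial identity markers, 7 of 8 had log2 differences below 0, 3 of them at an unadjusted p under 0.05 (edgeR). Across all genes tested, 49% lay below 0 and 5.79% were lower at that p. The summed levels were 1506 to 4913 CPM against 3255 to 7468 CPM, with none of the markers at 0. Among responsive tumours the sum was lowest in replicate 1, where Serpinb6a was highest, and highest in replicate 3, where Serpinb6a was lowest. Among non-responsive tumours both were highest in replicate 1, while the sum was lowest in replicate 2 and Serpinb6a in replicate 3. Between the groups, basal urothelial markers went the other way, with 9 of 9 above 0 (51% of all genes tested were). Of these, 3 were higher at that p (6.79% of all genes tested were). The part of these markers in the Serpinb6a difference was not tested. In bulk tissue, fewer cells of a type and less RNA per cell cannot be told apart.

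Its paralog Serpinb6b (chromosome 13, 32965209 to 32979067) was at 128, 79.6 and 42.5 CPM in non-responsive tumours, against 40.6, 171 and 100.4 CPM in responsive tumours. Both the lowest and the highest value were in responsive tumours. The log2 difference was -0.32 ± 0.57 (edgeR adjusted p = 0.811), which became -0.78 when non-responsive replicate 1 was left out and 0.24 when responsive replicate 2 was. Serpinb6c, a further copy, was at 1.39, 0.997 and 1.16 CPM against 1.54, 1.02 and 0.165 CPM (0.39 ± 0.77). Its low value in responsive replicate 3 rests on 4 counts.

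Of 9 Serpinb genes listed as epithelial, 4 were tested, 2 above and 2 below 0, with a median log2 difference of -0.05, and -0.63 without non-responsive replicate 1. This list was set with earlier results of these data known, and only genes past the filter enter the median. Serpinb5 (chromosome 1, 106861173 to 106883348) encodes maspin, an epithelial protein known for suppressing invasion that does not inhibit proteases in the usual way. It was at 229, 121 and 182 CPM in non-responsive tumours, against 268, 213 and 152 CPM in responsive tumours, the steadiest of the 13 genes with a 2.23-fold span from lowest to highest. Across all genes the median span was 2.18-fold. The group means were 177 ± 54.3 and 211 ± 58.0 CPM (SD, n = 3), giving a log2 difference of -0.25 ± 0.32 (95% interval -0.99 to 0.49, edgeR adjusted p = 0.719). It was -0.48 without non-responsive replicate 1 and -0.02 without non-responsive replicate 2.

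Serpinb11 (chromosome 1, 107361198 to 107380475) was at 75.4, 18.8 and 9.45 CPM in non-responsive tumours, against 46.9, 39.4 and 7.25 CPM in responsive tumours. Each group held both high and low tumours. The log2 difference was 0.15 ± 0.89 and became -1.15 without non-responsive replicate 1 (edgeR adjusted p = 0.417). Serpinb3a (chromosome 1, 107045587 to 107052303), a squamous cell carcinoma antigen homologue and inhibitor of lysosomal cathepsins, was at 12.1, 3.63 and 7.41 CPM against 11.1, 17.1 and 0.453 CPM. Responsive replicate 2 had the highest and responsive replicate 3 the lowest level, the latter from 11 counts. Its log2 difference was -0.30 ± 1.02 with all tumours. It was -0.79 without non-responsive replicate 1, 0.42 without responsive replicate 2 and -0.86 without responsive replicate 3.

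Serpinb12 (chromosome 1, 106934449 to 106957080), an epithelial inhibitor of trypsin-like proteases, was higher in all 3 non-responsive tumours at 5.70, 4.16 and 3.15 CPM, against 2.26, 2.86 and 0.0824 CPM. The groups did not overlap, but non-responsive replicate 3 and responsive replicate 2 lay close together. The value of responsive replicate 3 came from 2 counts, under the 0.124 CPM that a count of 0 allows there. The fitted log2 difference of 1.33 ± 0.97 (edgeR adjusted p = 0.544, 0.442 to 0.725 over the alternatives) was 0.76 without that tumour.

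Serpinb2 (chromosome 1, 107511423 to 107535478), the plasminogen activator inhibitor PAI-2 of keratinocytes and monocytes, was at 156, 55.1 and 42.1 CPM in the non-responsive tumours. It was at 43.1, 78.3 and 10.5 CPM in the responsive ones. Non-responsive replicate 1 was highest, and the other 2 non-responsive tumours lay within the responsive range. The log2 difference was 0.94 ± 0.76 (edgeR adjusted p = 0.577) and 0.14 without non-responsive replicate 1. Its annotation shares 291 exon bases with Serpinb10 on the same strand, a gene not analysed here. Serpinb8 (chromosome 1, 107590006 to 107610484), which inhibits the convertase furin, was at 56.3, 18.1 and 16.5 CPM against 39.8, 51.5 and 22.3 CPM. The log2 difference of -0.32 ± 0.54 (edgeR adjusted p = 0.796) became -1.13 without non-responsive replicate 1 (unadjusted p = 0.0272, adjusted p = 0.176).

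The 2 leukocyte genes were highest in different tumours. Serpinb1a (chromosome 13, 32842092 to 32851185), which protects neutrophils from their own elastase, proteinase 3 and cathepsin G, was at 247, 73.3 and 29.1 CPM in the non-responsive tumours. In the responsive tumours it was at 93.2, 104 and 38.5 CPM. Non-responsive replicate 1 was the highest and replicate 3 the lowest of all 6. The log2 difference was 0.57 ± 0.75 (edgeR adjusted p = 0.736) and -0.62 without non-responsive replicate 1. That tumour had the highest summed neutrophil markers (6668 CPM, with 840 and 1732 CPM in its 2 group mates and 388 to 1450 CPM among responsive tumours) and the highest squamous markers (19610 CPM, against 2105 and 3197 CPM and 6810 to 9172 CPM). None of the 11 neutrophil markers was at 0 in any tumour, and none of the 16 squamous markers at 0 in all. Their part in the Serpinb1a level was not tested. Its copy Serpinb1b, at 1.99, 3.58 and 0.648 CPM against 0.226, 1.27 and 0.495 CPM, had the largest fitted difference of the 13, 1.66 ± 0.86 (edgeR adjusted p = 0.442). The groups overlapped, and 5 to 61 counts per tumour lay behind it.

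Serpinb9 (chromosome 13, 33003250 to 33017957), the inhibitor of granzyme B that shields killer cells, dendritic cells and some tumour cells from that protease, was at 68.4, 138 and 71.3 CPM across non-responsive replicates 1 to 3. The responsive tumours were at 56.1, 93.2 and 55.8 CPM. Non-responsive replicate 2 was highest, and responsive replicate 2 lay above the other non-responsive tumours. The means were 92.4 ± 39.2 and 68.4 ± 21.5 CPM (SD, n = 3), giving a log2 difference of 0.43 ± 0.35 (95% interval -0.39 to 1.26, edgeR adjusted p = 0.579), and 0.05 without non-responsive replicate 2. That tumour also had the highest summed T and NK cell markers at 155 CPM, with 32.8 to 40.2 CPM in its 2 group mates and 23.9 to 34.9 CPM among responsive tumours. None of these 13 markers was at 0 in any tumour. Non-responsive replicate 2 was also highest for summed macrophage and monocyte (1748 CPM), leukocyte (1412 CPM), endothelial (1039 CPM) and fibroblast (6912 CPM) markers. By summed CPM it was not highest for neutrophil (840 CPM) or dendritic cell (192 CPM) markers. A sum is weighted to its most abundant genes. As a mean of log2 CPM less each gene's own mean, dendritic cell markers were highest in that tumour (1.27, against -0.35 to -0.03 elsewhere). The part of all these markers in the Serpinb9 level was not tested. Serpinb9b, which inhibits granzyme M in mice, was at 3.11, 7.86 and 6.11 CPM against 6.01, 7.49 and 3.05 CPM (0.05 ± 0.49). For the 2 leukocyte genes the median log2 difference was 0.50, and -0.01 without non-responsive replicate 1.

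The target proteases were read beside their inhibitors. Gzmb, encoding granzyme B, was at 1.502, 5.6 and 2.97 FPKM in non-responsive tumours, against 0.691, 0.758 and 0.99 FPKM in responsive tumours. Every non-responsive value lay above every responsive one, which by CPM held for 9.58% of all genes tested. The log2 difference of Gzmb on the CPM scale was 1.91 ± 0.53 (edgeR adjusted p = 0.35, DESeq2 adjusted p = 0.0265). Serpinb9 stood at 17.7, 45.9 and 22.7 FPKM in the same non-responsive tumours and 15.8, 26.1 and 16.7 FPKM in the responsive ones. Per tumour, the FPKM of Serpinb9 was 11.8, 8.2 and 7.65 times that of Gzmb in non-responsive tumours, against 22.8, 34.5 and 16.8 times in responsive tumours. The ratio did not overlap between the groups, with geometric means of 9.05 and 23.6. The difference had an exact two-sided permutation p = 0.1, the smallest possible for 3 against 3, and 0.3 adjusted over the 3 inhibitor and target pairs. Gzmb had 18 to 121 counts per tumour, which limits the precision of the ratio.

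**Figure D3:**
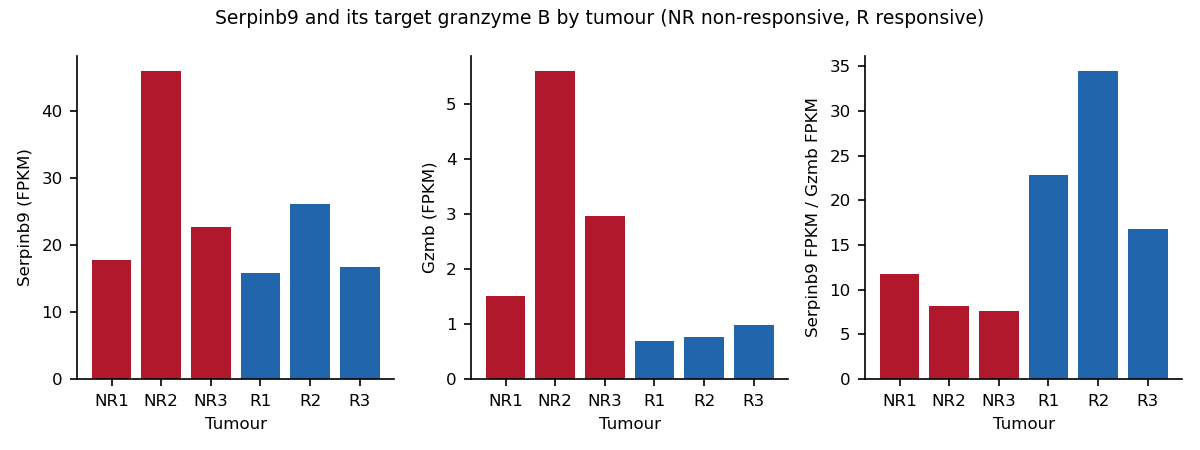
Bars give, for each of the 6 tumours, the deposited FPKM of Serpinb9, that of Gzmb and their ratio, all from 0 and with no error bars since each is 1 library. Serpinb9 overlaps between the groups, Gzmb is higher in each non-responsive tumour, and the ratio is 7.65 to 11.8 in the non-responsive and 16.8 to 34.5 in the responsive tumours.

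The other pairs did not separate the groups. Serpinb2 was 4.21, 0.914 and 1.19 times as abundant by FPKM as its target Plau, the urokinase plasminogen activator, in the non-responsive tumours and 0.436, 1.71 and 0.275 times in the responsive ones (exact permutation p = 0.3). Serpinb8 stood at 0.469, 0.16 and 0.117 times the FPKM of Furin against 0.591, 0.476 and 0.204 times (exact permutation p = 0.2). Ctsg, encoding cathepsin G, the target of Serpinb1a and Serpinb6a, had 0 counts in 2 tumours and at most 13 counts, so no ratio was formed. Elane, encoding neutrophil elastase, had 0 to 19 counts, Gzmm 2 to 12 counts, and Prtn3 differed by -0.19 ± 0.89.

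Among the target lists 0 genes passed edgeR with adjustment over all genes. Of 15 serine proteases of leukocytes 5 were tested, and at an unadjusted p under 0.05 there was 1 higher (Gzmb) and 2 lower, the mast cell proteases Cma1 (-2.29 ± 0.60) and Mcpt4 (-2.22 ± 0.67), against 6.79% of all genes higher and 5.79% lower. DESeq2 called both, with adjusted p = 0.0105 for Cma1 and 0.0276 for Mcpt4. Of 8 cysteine cathepsins, all tested, 2 were higher and 1 lower at that p. Ctss, the cathepsin of antigen presenting cells, differed by 1.48 ± 0.46, Ctsl by -0.26 ± 0.50 and Ctsk by 0.49 ± 0.42. Plat, the tissue activator that Serpinb2 also inhibits, was at 87.5, 101 and 94.1 CPM in non-responsive tumours. In responsive tumours it was at 188, 251.2 and 193 CPM, without overlap (8.08% of all genes tested were lower in every non-responsive tumour). The log2 difference of Plat was -1.16 ± 0.20 (edgeR adjusted p = 0.35, DESeq2 adjusted p = 0.000148). Plau differed by -0.40 ± 0.38 and its receptor Plaur by -0.16 ± 0.32. Furin differed by 0.38 ± 0.24, and of the 4 convertases 0 were at an unadjusted p under 0.05.

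Single tumours stood out across several genes. The lowest level of 7 of the 13 Serpinb genes was in responsive replicate 3 (Serpinb9b, Serpinb11, Serpinb3a, Serpinb9, Serpinb6c, Serpinb12 and Serpinb2), while 17.7% of all genes tested were lowest there. The highest level of 5 genes was in non-responsive replicate 1 (Serpinb8, Serpinb11, Serpinb1a, Serpinb12 and Serpinb2), where 13.9% of all genes were highest. From the lowest to the highest tumour, Serpinb12 spanned 69.1-fold, Serpinb3a 37.8-fold, Serpinb1b 15.8-fold, Serpinb2 14.9-fold and Serpinb11 10.4-fold. The lowest values of Serpinb12, Serpinb3a and Serpinb1b rest on 2, 11 and 5 counts. On the chromosome 1 cluster, the mean deviation of the 4 epithelial genes (log2 CPM less the gene's own 6-tumour mean) was 1.11, -0.16 and -0.10 in non-responsive tumours, against 0.64, 0.73 and -2.23 in responsive tumours. Squamous markers scored 1.15, -1.14 and -0.78 against 0.60, 0.79 and -0.63 on the same scale, and luminal urothelial markers -0.60, -0.76 and -1.35 against -0.18, 0.97 and 1.93. Responsive replicate 3 thus had the highest luminal score and the lowest score of the epithelial Serpinb genes. It also had the lowest leukocyte score, -0.99, and neutrophil score, -1.57. Between the groups, log2 differences were below 0 for 9 of 10 luminal markers and above 0 for 9 of 9 tested basal, 11 of 11 T and NK cell, 9 of 9 neutrophil and 12 of 12 macrophage markers. Of 15 tested squamous markers 7 lay above and 8 below 0, and of all genes 51% and 49% did. CPM was higher in every non-responsive tumour for 3 basal, 4 T and NK cell, 0 neutrophil and 3 macrophage markers (9.58% of all genes). It was lower in every one for 2 luminal markers (8.08% of all genes). The part of these markers in the Serpinb levels was not tested.

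**Figure D4:**
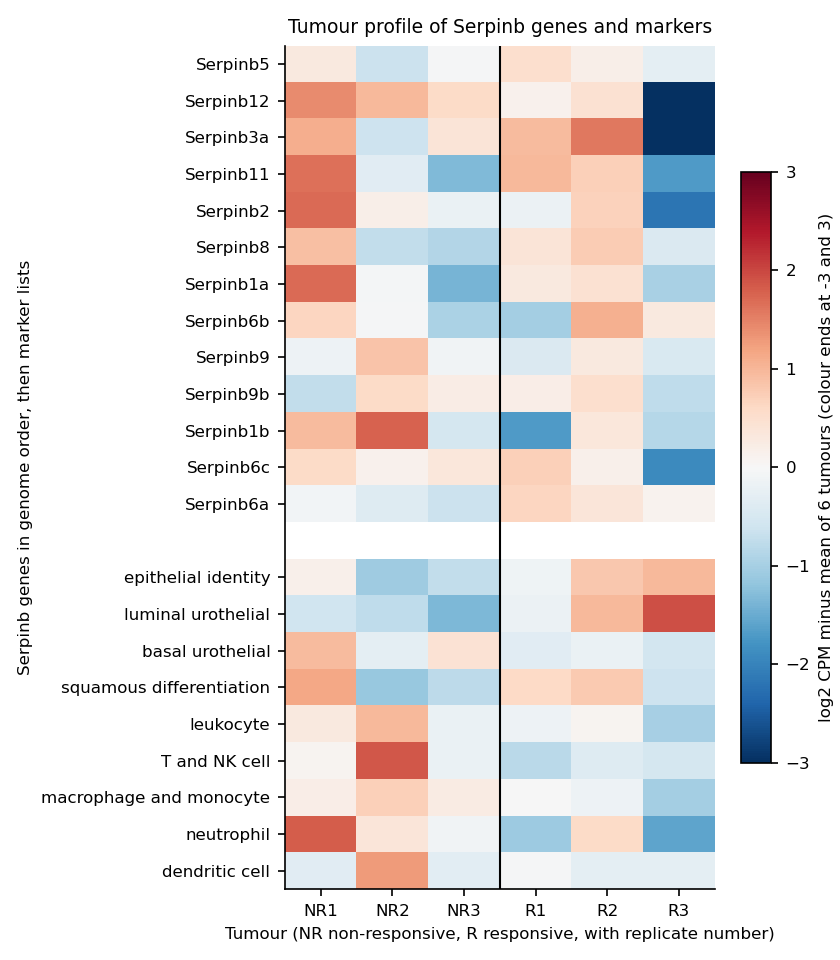
Colour gives log2 CPM minus the mean over the 6 tumours for the 13 Serpinb genes in genome order (chromosome 1 from Serpinb5 to Serpinb8, then chromosome 13) and, below the gap, the mean of the same quantity over 9 marker lists, with colours ending at -3 and 3. Serpinb12, Serpinb3a, Serpinb11 and Serpinb2 are low in responsive replicate 3, and Serpinb11, Serpinb2 and Serpinb1a are high in non-responsive replicate 1.

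Leaving out 1 tumour at a time changed the sign of the edgeR difference for Serpinb9b, Serpinb11, Serpinb6b, Serpinb3a, Serpinb1a and Serpinb6c. For the other 7 genes the sign was the same in all 6 fits. Without non-responsive replicate 1, the differences not yet given were 1.68 for Serpinb1b, 1.08 for Serpinb12, 0.61 for Serpinb9, 0.34 for Serpinb9b and 0.25 for Serpinb6c. Serpinb6a ranged from -0.911 to -0.605, but its unadjusted p was above 0.05 without non-responsive replicate 2 or 3 or responsive replicate 1 or 2 (0.0542, 0.0819, 0.062 and 0.0513).

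**Figure D5:**
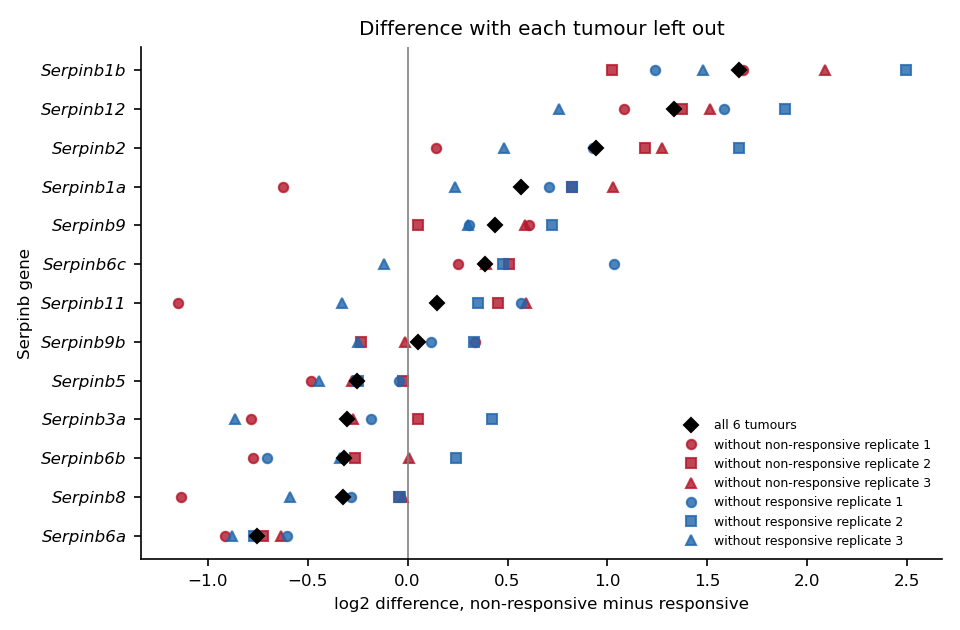
For each of the 13 Serpinb genes tested, the black diamond is the log2 difference with all 6 tumours and each coloured point the difference with the named tumour left out (edgeR). Serpinb6a stays between -0.911 and -0.605, while Serpinb11 runs from -1.15 to 0.59 and Serpinb1a from -0.62 to 1.03.

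Among serpins of the other clades, 13 of 35 were tested, with a median log2 difference of 0.53, 10 above and 3 below 0.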

How the data were processed

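Bulk RNA sequencing of 6 tumours was used, 3 per group as the titles give them. Per the labels' protocols, TRIZOL extraction preceded an Illumina TruSeq RNA library kit, and per the submitters' processing notes the build was mm10. For aligner, counter, strand setting and annotation the sources used here give nothing. The estimated counts (expected counts) deposited by the authors were rounded to whole numbers; 8.19 to 9.99% of values per tumour were not whole. The FPKM values the authors deposited served to compare genes and in 1 alternative. The main test was edgeR 4.0.16 under R 4.3.3 (TMM, default filter, robust quasi-likelihood test, two-sided, Benjamini-Hochberg threshold 0.05). Alternatives used DESeq2 1.42.0, limma 3.58.1, other scalings and filters, a block for the replicate number, and each tumour left out in turn. DESeq2 without each tumour was added after seeing the data. On simulated data of 14505 genes, the share recovered by edgeR was 2.5% at 2-fold (80 genes), 70% at 4-fold (80 genes) and 90% at 8-fold (40 genes), and 10 calls were false. Only genes averaging at least 5 CPM were changed, so these shares do not cover Serpinb12, Serpinb1b and Serpinb6c. Counts were drawn independently for each gene, without spread shared by the genes of a tumour. Every 2 libraries differed beyond sampling noise (smallest chi-square over its degrees of freedom 75.75). Same-numbered samples did not deviate together (r = -0.11, -0.087 and -0.024). All Serpinb genes are named, together with 12 genes taken as known targets, of which Plaur is a receptor and not a protease. The other genes of the target and marker lists are given by count. Other genes named from those lists (Cma1, Mcpt4, Epcam, Krt5, Ptprc and Upk2) were chosen after their values were seen. Nqo2 and Ripk1 are in none of the lists and are named for their exon overlap with Serpinb6a, also after their values were seen. Members, lists and motifs were chosen with earlier results of these data known. 1 gene of the plasminogen activation list is not reported here.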

Additional observations from a re-analysis of the deposited data

How the results depend on the processing

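The count of Serpinb genes past the threshold was 0 in every alternative with all 6 tumours and 0 to 1 when each tumour was left out with edgeR or DESeq2, the 1 being Serpinb6a with DESeq2 without non-responsive replicate 1. For all genes the count was 0 with edgeR and limma under each setting and 447 with the DESeq2 Wald test. With a tumour left out it was 0 to 1966, the highest with DESeq2 without non-responsive replicate 1. The cause was not tested. The median of the leukocyte Serpinb genes was 0.50, -0.27 with limma-voom and quality weights, and -0.02 to 0.81 with a tumour left out. The median of the epithelial genes ranged from -0.64 to 0.39 with a tumour left out. With limma-voom the differences of Serpinb9b (-0.055), Serpinb11 (-0.843) and Serpinb1a (-0.605) changed sign, and Serpinb3a did so with log2(FPKM + 1) (0.195). With a tumour left out by either tool, differences ranged from -0.26 to 0.34 for Serpinb9b, -1.17 to 0.59 for Serpinb11, -0.78 to 0.24 for Serpinb6b, -0.87 to 0.42 for Serpinb3a, -0.64 to 1.03 for Serpinb1a and -0.13 to 1.05 for Serpinb6c. With the replicate number as a block, Serpinb3a was at 0.40, 0 genes and 0 Serpinb genes passed, and 1602 genes had an unadjusted p under 0.05 against 1825 without it. The numbers share no more than a label, and no tumour correlated best with its own number. In all, 227 of 255 differences kept their direction and side of the threshold. Serpinb12, Serpinb1b and Serpinb6c have no value under the stricter filter (at least 5 CPM in 3 tumours), nor Serpinb1b and Serpinb6c with FPKM. Genes at a few counts, such as Serpinb12 in responsive replicate 3, are limited by depth.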
